A study of Danio rerio with 39 samples.

Results

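The genes that set up the bone morphogenetic protein (BMP) gradient were followed through zebrafish embryos irradiated until the shield stage. They are the ligands bmp2b (listed as BMP2, ENSDARG00000041430), bmp4 (ENSDARG00000019995) and bmp7a (ENSDARG00000018260), the antagonists chrd (ENSDARG00000006110) and nog1, the feedback inhibitors szl (ENSDARG00000099637) and bambia, and the ventral homeobox repressors vox (ENSDARG00000099761), vent (ENSDARG00000100483) and ved (ENSDARG00000102389). Of the 10 genes, 8 were matched to 1 of the 32057 genes counted, 7 of them by symbol and bmp2b by its identifier, since another gene listed as BMP2 (ENSDARG00000013409, at most 0.296 CPM, or counts scaled to a common library size) shares its symbol. For nog1 and bambia, 2 genes each share the symbol NOG or BAMBI. These candidates are given by identifier and kept out of the counts of members.

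In the vertebrate gastrula, BMP ligands made on the ventral side instruct cells to take ventral fates. In zebrafish the ligands that signal are chiefly pairs of Bmp2b and Bmp7a, and mutants of either are dorsalised. The dorsal organizer, which is the shield, secretes Chordin and Noggin, which bind the ligands and keep them from their receptors. Sizzled, made ventrally in response to BMP, blocks the proteases that cleave Chordin. Bambi is a membrane protein that resembles a receptor without its kinase. Vox, Vent and Ved are repressors that keep organizer genes, chrd among them, off on the ventral side.

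Whole embryos of the AB genetic background were collected just after fertilisation and exposed continuously to gamma rays of a 137Cs source, or kept unexposed, up to the shield stage. Each dose rate was irradiated in a batch of its own with controls of that batch. Of the 39 libraries, the batch of 0.005 mGy/h (I14) held 3 exposed and 4 control ones, that of 0.05 mGy/h (I13) 4 of each kind, and those of 0.5 mGy/h (I32) and 5 mGy/h (I30) 6 of each kind. Each library came from a pool of whole embryos, so that fewer cells of a type and less RNA per cell cannot be told apart, and dose rate cannot be told apart from batch when dose rates are compared.

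Depth ranged from 9845688 to 57169053 counts per library. At 5 mGy/h the exposed libraries were deeper (median 30203518) than the controls (median 13846841). The study left 8 of the 39 libraries out of its own fits by clustering, 4 of them at 5 mGy/h. That choice, read here from its clustering tree, was made on the expression of these libraries, so that groups that stand further apart after it are not independent support of a difference. All 39 are used here, and the values over the 31 that it kept are given where they change the call of a member or of a gene of the pathway. Later stage markers, such as egr2b and gfap, summed to at most 0.364 CPM in any library, and the gastrula markers were present in every group, although gsc was low in some libraries. A gene is called changed when its adjusted p was under 0.05 in edgeR, adjusted over all genes tested.

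The levels of the members in unexposed embryos were first compared between the 4 batches, because the effect of exposure is read against them. All 8 members differed among the control groups, with adjusted p from 4.63e-09 for chrd to 2.35e-05 for bmp4. This was not particular to them, since 77.4% of the 16249 genes tested differed between the batches. The controls of the batch used for 0.005 mGy/h had the highest mean of 6 of the members, among them chrd with 889.9 ± 32.6 CPM (SD, n = 4) against 294.9 ± 29.8 CPM (n = 6) in the batch used for 5 mGy/h. For chrd, bmp2b, bmp7a and ved the single controls of that batch all lay above those of every other batch. That batch had the lowest mean of vent, which averaged 25.3 ± 7.62 CPM in that batch (n = 4), 53.4 ± 16.1 CPM in the batch of 0.5 mGy/h (n = 6), 94.0 ± 21.4 CPM in the batch of 5 mGy/h (n = 6) and 94.8 ± 29.0 CPM in the batch of 0.05 mGy/h (n = 4). Between the last 3 of these the ranges of vent overlapped. When the batches were ordered by their control means, neighbouring ranges were apart at 1 of the 3 steps for each member, and at 2 steps for bmp7a, and overlapped at the others. The control means of one batch exceeded those of another by up to 3.74-fold for vent, 3.02-fold for chrd, 2.61-fold for ved, 2.47-fold for bmp2b and 1.55-fold for bmp4.

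**Figure D1:**
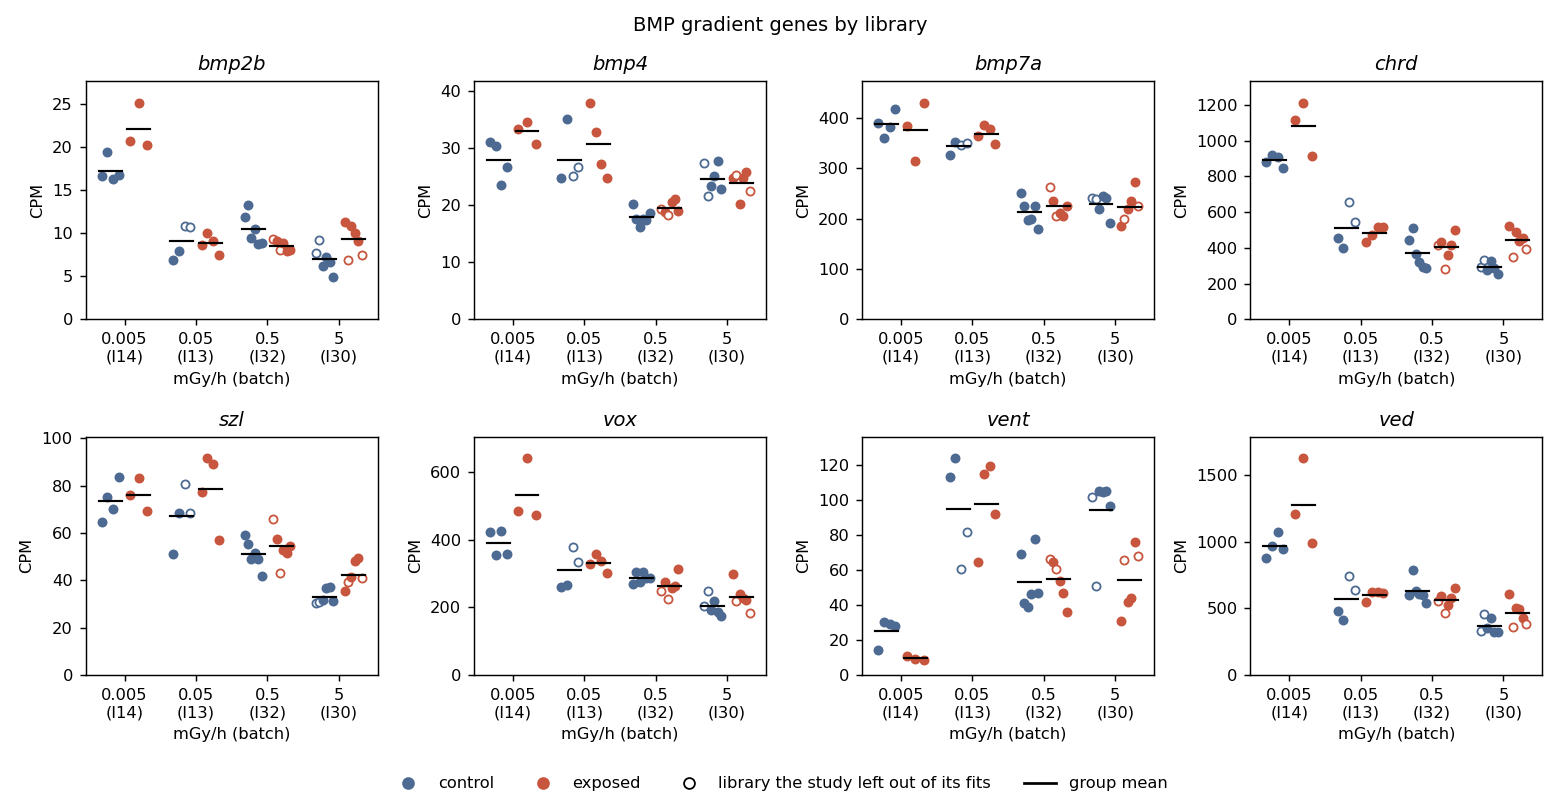
Level in CPM of the 8 matched members in each of the 39 libraries, by dose rate (batch in brackets), with controls in blue, exposed libraries in red, a black bar at each group mean and open circles for the libraries the study left out of its fits. At 5 mGy/h the 6 exposed libraries lay above the 6 controls for chrd, and vent lay low in all libraries of the batch of 0.005 mGy/h.

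The dose rate of 5 mGy/h was the one at which members passed the test. Of the 8 members, 2 were higher (chrd and szl) and 1 was lower (vent), while 9.1% of the 15015 genes tested were called, 4.57% higher and 4.53% lower. The median log2 fold change was 0.22 over the members and -0.05 over all genes tested. None of the 3 passed the stricter threshold of an adjusted p under 0.01 with a fold change of 1.5, which 0.533% of all genes passed. This depended on the fit. With DESeq2 2 of the 8 members passed it, beside 280 of 25218 genes. Over the libraries kept by the study 3 members did (bmp2b, chrd and vent), beside 7.97% of all genes.

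The Chordin gene showed the clearest change. In controls chrd lay between 255 and 331 CPM, with a median of 291 CPM, and in exposed embryos between 348 and 525 CPM, with a median of 446 CPM. The 6 exposed libraries were all above the 6 controls, which was so for 2.29% of all genes in this direction. The rise was 1.47-fold (log2 fold change 0.56 ± 0.10 SE, 95% interval 0.35 to 0.77, adjusted p = 0.00649), and it was called whichever library was left out, with adjusted p from 0.00223 to 0.0273. Over the libraries kept by the study it was 1.64-fold (adjusted p = 0.000365).

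The gene for Sizzled, szl, moved in the same direction. Its level lay between 30.5 and 37.0 CPM in controls (median 31.4 CPM) and between 35.4 and 49.3 CPM in exposed embryos (median 41.2 CPM), so that 5 of the 6 exposed libraries were above every control. The rise was 1.26-fold (log2 fold change 0.33 ± 0.10 SE, adjusted p = 0.0407). This call is close to the threshold. It was lost over the libraries kept by the study (log2 fold change 0.33, adjusted p = 0.0584) and with counts thinned to the lowest depth of the batch (0.28, adjusted p = 0.0778). It was also lost when exposed replicate 3, 4 or 5 was left out (log2 fold changes of 0.35, 0.30 and 0.28, in this order) or control replicate 1, 3, 5 or 6 (0.32, 0.32, 0.38 and 0.31), with adjusted p from 0.0543 to 0.104.

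In contrast, vent was lower. Its controls lay between 50.9 and 105 CPM with a median of 103 CPM, and 5 of the 6 were above 96 CPM, while control replicate 2 stood apart at 50.9 CPM. The exposed embryos lay between 31.0 and 75.9 CPM with a median of 54.9 CPM. The groups overlapped only through that control. The level in exposed embryos was 0.567 of that in controls (log2 fold change -0.82 ± 0.20 SE, 95% interval -1.25 to -0.39, adjusted p = 0.0239). Without control replicate 2 the log2 fold change was -0.95 (adjusted p = 0.00496). The call was lost without exposed replicate 3 (-0.75, adjusted p = 0.0675) or 4 (-0.76, 0.0634) and without control replicate 3 (-0.79, 0.0594), 5 (-0.77, 0.0603) or 6 (-0.82, 0.0507). Over the libraries kept by the study, which leave out control replicate 2, the log2 fold change was -1.11 (adjusted p = 0.000779) and the groups were apart.

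The other homeobox repressors did not share the direction of vent. In RefSeq annotation (assembly GRCz12tu) vox is the next protein-coding gene to vent. In the batch of 5 mGy/h vox lay between 174 and 249 CPM in controls (median 199 CPM) and between 182 and 298 CPM in exposed embryos (median 225 CPM), with a log2 fold change of 0.15 ± 0.11 SE that was not called (adjusted p = 0.371). For ved the range was 323 to 461 CPM in controls and 362 to 607 CPM in exposed embryos, with medians of 343 and 461 CPM (log2 fold change 0.30 ± 0.12 SE, adjusted p = 0.124). The ranges of both genes overlapped between the groups. Over the libraries kept by the study both were called higher, vox with a log2 fold change of 0.34 (adjusted p = 0.0305) and ved with 0.49 (adjusted p = 0.00524).

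Among the ligands, the outcome for bmp2b depended on the libraries used. Controls lay between 4.88 and 9.28 CPM (median 6.97 CPM) and exposed embryos between 6.96 and 11.3 CPM (median 9.62 CPM). Over all libraries the log2 fold change was 0.37 ± 0.16 SE (95% interval 0.03 to 0.70) and was not called (adjusted p = 0.145). The 2 highest controls, at 9.28 and 7.76 CPM, and the 2 lowest exposed libraries, at 6.96 and 7.53 CPM, are the ones that the study left out. Without these 4 the groups were apart, as for 23.1% of all genes, and bmp2b was 1.63-fold higher (log2 fold change 0.70 ± 0.16 SE, adjusted p = 0.00449), while 25.4% of all 14529 genes tested were then called. The choice of libraries thus moved the number of members called from 3 to 5 of 8.

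Neither of the other ligands changed measurably. The ranges of bmp4, 21.7 to 27.7 CPM in controls and 20.3 to 25.8 CPM in exposed embryos, lay over each other, and the log2 fold change was -0.08 with a 95% interval from -0.29 to 0.14 (adjusted p = 0.652). Those of bmp7a were 192 to 246 CPM in controls and 186 to 273 CPM in exposed embryos, with a log2 fold change of -0.07 and an interval from -0.27 to 0.13 (adjusted p = 0.647). The mean log2 CPM of the 3 ligands less the log2 CPM of chrd was lower by 0.47 in exposed embryos at 5 mGy/h. Its values, from -3.81 to -3.41 in exposed libraries and from -3.20 to -2.98 in controls, did not overlap. How often such measures of other genes do not overlap was not computed. Of the genes in it, only chrd was called over all libraries. The difference was -0.09 at 0.005, 0.13 at 0.05 and -0.16 at 0.5 mGy/h, with overlapping values. For bmp2b alone less chrd the difference at 5 mGy/h was -0.16, with overlapping values from -5.72 to -5.44 in exposed libraries and from -5.70 to -5.16 in controls. It was 0.08 at 0.005, 0.04 at 0.05 and -0.41 at 0.5 mGy/h. The absolute size of these values also depends on gene lengths, and no test was made of them.

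**Figure D2:**
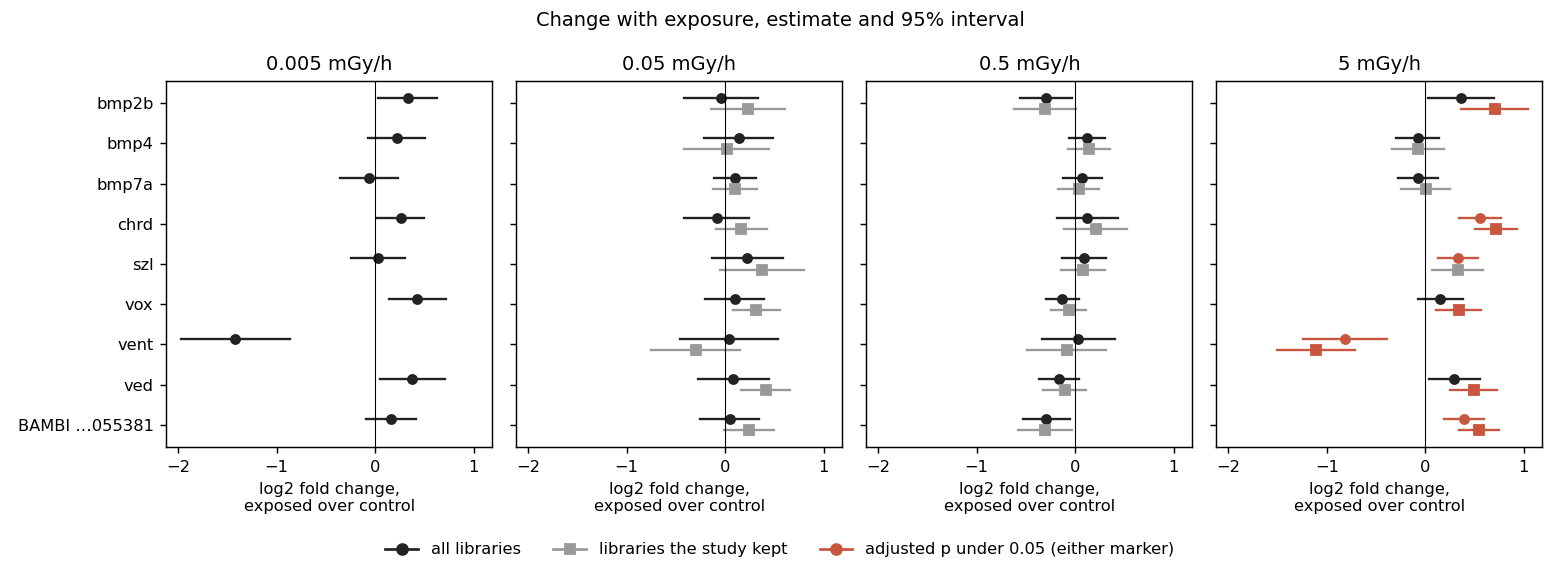
Log2 fold change of exposed over control embryos (points) with its 95% interval (lines) for the 8 members and the BAMBI gene ENSDARG00000055381 at each dose rate, over all libraries (circles) and over those the study kept (squares, which are the same libraries at 0.005 mGy/h), with red for an adjusted p under 0.05. At 5 mGy/h chrd and vent were called in both sets, szl only over all libraries, and bmp2b, vox and ved only over the kept ones.

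Both genes listed as BAMBI had counts. The BAMBI gene ENSDARG00000055381 lay at 5 mGy/h between 376 and 521 CPM in controls (median 405 CPM) and between 474 and 681 CPM in exposed embryos (median 585 CPM). It was 1.31-fold higher (log2 fold change 0.39 ± 0.10 SE, adjusted p = 0.025). The highest control, replicate 2 at 521 CPM, was the one whose vent level was low. The call was lost when exposed replicate 1, 3 or 4 was left out (log2 fold changes of 0.33, 0.39 and 0.38) or control replicate 1, 3, 5 or 6 (0.38, 0.38, 0.38 and 0.35), with adjusted p from 0.0503 to 0.0652. The other BAMBI gene, ENSDARG00000099677, had at most 1.91 CPM in any library and was not called at any dose rate over all libraries (at 5 mGy/h log2 fold change 0.65 ± 0.28 SE, adjusted p = 0.139). Without control replicate 2 it was called at 5 mGy/h (0.87, adjusted p = 0.0462). Of the NOG genes, ENSDARG00000053528 had no count in any of the 39 libraries. The other, ENSDARG00000058819, lay between 14.3 and 41.6 CPM and was not called at any dose rate (at 5 mGy/h log2 fold change 0.17 ± 0.13 SE, adjusted p = 0.411).

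At 0.5 mGy/h none of the 8 members was called, in a fit that called 7.51% of the 14906 genes tested. An unadjusted p under 0.05 was reached by 1 of the 8 members, bmp2b, and by 25.4% of all genes, and DESeq2 called none of the members either. The groups overlapped for all 8, and were apart for 3.94% of all genes. The bmp2b level lay between 8.81 and 13.3 CPM in controls (median 9.94 CPM) and between 7.95 and 9.32 CPM in exposed embryos (median 8.48 CPM), with a log2 fold change of -0.29 ± 0.13 SE (adjusted p = 0.15). Its sign was thus opposite to that at 5 mGy/h. The BAMBI gene ENSDARG00000055381 had a log2 fold change of -0.29 ± 0.11 SE (adjusted p = 0.113), also opposite to that at 5 mGy/h. The levels of chrd spread widely in this batch, from 288 to 512 CPM in controls and from 284 to 503 CPM in exposed embryos, and those of vent from 38.99 to 77.9 CPM in controls and from 35.8 to 66.0 CPM in exposed embryos. Neither gene differed beyond this spread, with log2 fold changes of 0.12 ± 0.15 SE for chrd and 0.03 ± 0.18 SE for vent. Over the 8 members the log2 fold changes at this dose rate lay between -0.29 and 0.12.

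At 0.05 mGy/h no member was called, and 0.00632% of the 15814 genes tested were. None of the members reached an unadjusted p under 0.05, as 1.37% of all genes did, and DESeq2 called none of them. The groups overlapped for each member and were apart for 1.22% of all genes. The log2 fold changes lay between -0.09 for chrd and 0.23 for szl. For vent the controls were at 113, 124, 60.4 and 81.9 CPM and the exposed libraries at 64.5, 115, 120 and 91.9 CPM, so that a spread of about the same size was found in both groups (log2 fold change 0.04 ± 0.23 SE). The 2 lower controls of vent, replicates 3 and 4, had the higher levels of chrd (655 and 546 CPM against 455 and 399 CPM) and of ved (741 and 637 CPM against 481 and 414 CPM), and they are the libraries that the study left out. Without them ved (log2 fold change 0.41, adjusted p = 0.328) and vox (0.32, adjusted p = 0.414) were above both remaining controls in all 4 exposed libraries, as were 10.1% of all genes, but neither was called, in a fit that called 0.018%.

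The largest difference of a member at any dose rate was that of vent at 0.005 mGy/h. Its controls were at 13.99, 30.3, 29.1 and 27.9 CPM and the exposed libraries at 10.8, 9.36 and 8.62 CPM. All exposed libraries lay below all controls, as for 5.12% of all genes in this direction, and control replicate 1 was nearer to the exposed libraries than to the other controls. The level in exposed embryos was 0.374 of that in controls (log2 fold change -1.42 ± 0.25 SE, 95% interval -1.97 to -0.87). At this dose rate edgeR called 0.0% of the 13935 genes tested, with an adjusted p of 0.208 for vent, whereas 10.5% of the genes and 5 of the 8 members had an unadjusted p under 0.05. The outcome for vent rested on the method and on 1 library. It was called by DESeq2 (adjusted p = 0.00013), by edgeR with no filter on low counts (0.00695) or in 1 fit over all 39 libraries (0.0385), and without control replicate 1 (log2 fold change -1.62, adjusted p = 0.000387).

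The other members at 0.005 mGy/h had mostly small positive differences, none of them called. The levels of vox were 424, 356, 426 and 358 CPM in controls and 485, 642 and 474 CPM in exposed embryos (log2 fold change 0.43 ± 0.13 SE, adjusted p = 0.295), without overlap. Those of bmp2b were 16.6, 19.5, 16.3 and 16.8 CPM in controls and 20.8, 25.2 and 20.3 CPM in exposed embryos (0.33 ± 0.14 SE, adjusted p = 0.436), again without overlap. In all, 3 of the 8 members had groups that did not overlap, against 10.7% of all genes in this design of 3 against 4 libraries. The groups overlapped for ved (0.38 ± 0.15 SE) and chrd (0.26 ± 0.11 SE). Exposed replicate 3 had the highest level of the group in both, with 1627 CPM of ved and 1212 CPM of chrd.

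Whether the effect of exposure differed between the dose rates was tested in 1 fit over the 39 libraries. Of the members, vent differed among the 4 dose rates (adjusted p = 0.0457), as did the BAMBI gene ENSDARG00000055381 (adjusted p = 0.0419), and 2.21% of the 17255 genes tested did. For vent the log2 fold changes set side by side were -1.42 at 0.005, 0.04 at 0.05, 0.03 at 0.5 and -0.82 at 5 mGy/h, an order that does not follow the dose rate. Between the highest dose rates, the effect on bmp2b at 5 mGy/h was higher than at 0.5 mGy/h by 0.69 ± 0.20 SE on the log2 scale (95% interval 0.30 to 1.08, adjusted p = 0.0208), and that on the BAMBI gene by 0.71 ± 0.15 SE (adjusted p = 0.00719). For this difference 13.2% of all genes were called. It was 0.46 for chrd (adjusted p = 0.0804) and -0.82 for vent (adjusted p = 0.0624), neither of them called, and over the libraries kept by the study 5 of the 8 members (bmp2b, chrd, vox, vent and ved) and 18.1% of all genes were called. In those libraries 3 of the 8 members (bmp2b, vent and ved) and 7.67% of all genes differed among the 4 dose rates, with ved at the edge of the threshold.

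The mean effect over the 4 dose rates was called for vent alone among the members (log2 fold change -0.53 ± 0.13 SE, adjusted p = 0.0284), with 0.933% of all genes called. The log2 fold changes averaged in it ranged from -1.42 to 0.04 as given above, and those at 0.05 and 0.5 mGy/h were close to 0. Over the libraries kept by the study 6 of the 8 members and 16.3% of all genes were called, with vent lower and bmp2b, chrd, szl, vox and ved higher.

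The members also varied together between libraries of the same group. After the mean of each group was subtracted from log2 CPM, 10 of the 28 pairs of members were correlated over the 39 libraries with an adjusted p under 0.05 (permutation within groups), 8 of them positively and 2 negatively. The strongest relations joined ved with vox (Pearson r = 0.83, Spearman rho = 0.77) and ved with chrd (r = 0.82, rho = 0.84), each with p = 1e-05, the smallest that the permutations can give, and adjusted p = 0.00014. Within the batches r was 0.73 to 0.88 for ved and vox and 0.87 to 0.97 for ved and chrd, and without the 2 libraries farthest from the median of vox or chrd it was 0.80 and 0.81. The share of all pairs of genes that are correlated in this way was not computed. Whether the count of 10 of 28 is particular to the members is therefore not known. The libraries share depth and composition in such a comparison, and a correlation of levels says nothing of control.

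Vent ran against its neighbour vox (r = -0.61, rho = -0.53, permutation p = 0.00013, adjusted p = 0.000455 for r and 0.00728 for rho), with r from -0.79 to -0.34 within the 4 batches and -0.54 without the 2 libraries farthest in vox. It also ran against ved (r = -0.49, rho = -0.44, permutation p = 0.004 and 0.0139, adjusted p = 0.0124 and 0.0388), although within the batch of 0.005 mGy/h r was 0.34. Over the 31 libraries kept by the study 6 pairs remained under 0.05, and neither relation of vent was among them (r = -0.37 with vox and -0.15 with ved). The relations of ved with vox (r = 0.72, adjusted p = 0.00765) and with chrd (r = 0.74, adjusted p = 0.00028) were, although r for ved and vox was then 0.02 within the batch of 0.05 mGy/h.

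**Figure D3:**
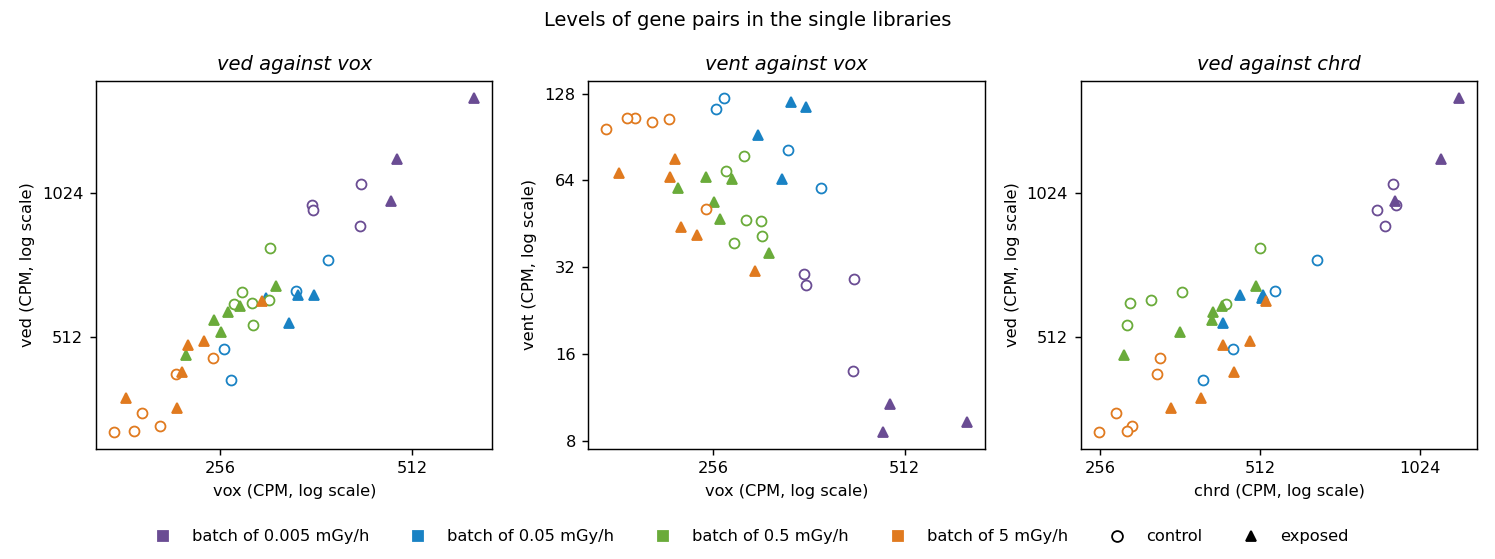
Levels of ved against vox, vent against vox and ved against chrd in each of the 39 libraries, in CPM on log2-scaled axes, coloured by batch, with open circles for controls and filled triangles for exposed embryos. The libraries of the batch of 0.005 mGy/h (purple) lie at the high end of vox, ved and chrd and at the low end of vent.

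The ligand bmp2b was correlated with ved (r = 0.71, rho = 0.69, permutation p = 5e-05 and 0.00014, adjusted p = 0.000327 and 0.00098), with chrd (r = 0.68, rho = 0.70, permutation p = 2e-05 and 6e-05, adjusted p = 0.000187 and 0.00056) and with vox (r = 0.66, rho = 0.64, permutation p = 7e-05 and 0.00022, adjusted p = 0.000327 and 0.00103). The r with vox ranged from 0.07 in the batch of 0.5 mGy/h to 0.96 in that of 0.05 mGy/h, whereas with chrd it lay between 0.62 and 0.90 in the 4 batches. Without the 2 libraries farthest from the median of bmp2b, r was 0.70 with ved, 0.69 with chrd and 0.60 with vox. Over the libraries kept by the study the relation with vox was no longer under 0.05 (r = 0.45, adjusted p = 0.0614). Those with chrd (r = 0.61, adjusted p = 0.0332) and ved (r = 0.53, adjusted p = 0.0414) were, but within the batch of 0.05 mGy/h r was then -0.48 and -0.19.

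By contrast, bmp4 was in none of the 10 pairs, and bmp7a was in 1, with szl (r = 0.56, rho = 0.58, permutation p = 6e-05 and 0.00019, adjusted p = 0.000327 and 0.00103). That relation held within 3 batches (r from 0.76 to 0.92) and was -0.35 within the batch of 0.005 mGy/h. The remaining pairs were chrd with vox (r = 0.61, rho = 0.60, permutation p = 0.00011 and 0.00037, adjusted p = 0.00044 and 0.00148), with r from 0.52 to 0.79 within the batches, and bmp2b with szl (r = 0.46, rho = 0.50, permutation p = 0.00602 and 0.00302, adjusted p = 0.0169 and 0.0094). For the last one r was -0.03 within the batch of 5 mGy/h, so that it did not hold there. Without the 2 libraries farthest in the first gene of each pair, r was 0.55, 0.60 and 0.53 for these 3 pairs. The relation of chrd with vox was lost over the libraries kept by the study (r = 0.38, adjusted p = 0.0757, and r = -0.35 within the batch of 0.05 mGy/h).

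**Figure D4:**
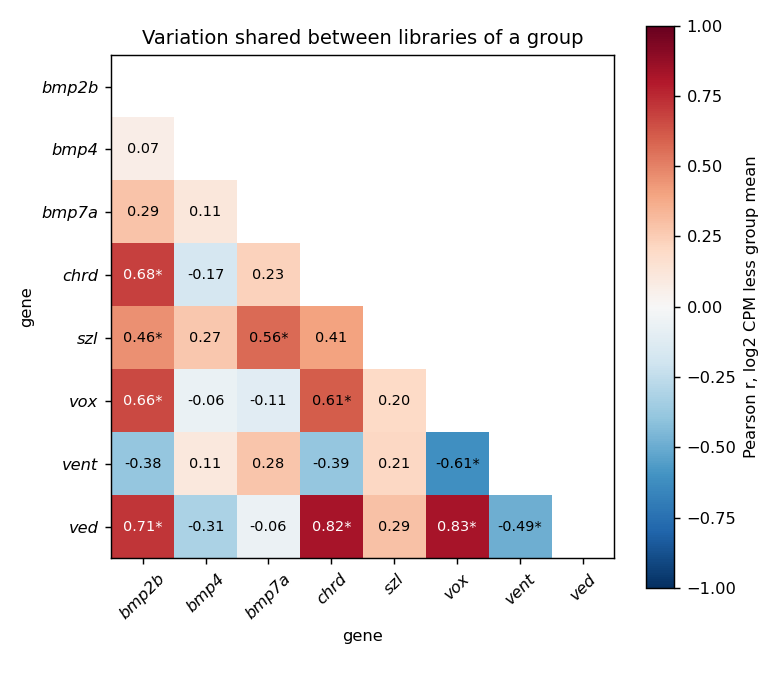
Pearson r of log2 CPM, less the mean of each group, for every pair of the 8 members over 39 libraries, with red for positive and blue for negative values and an asterisk for an adjusted permutation p under 0.05. The block formed by bmp2b, chrd, vox and ved is positive throughout, from 0.61 to 0.83, and vent is negative with each of the 4.

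Of all genes with a mean log2 CPM of at least 1, those most like each member over the 39 libraries, centred on the batch mean, were the following. Nearest to ved came SF3A2 (r = 0.97), PCNA (0.97) and SAP30L (0.97), and nearest to chrd VIRMA (0.94), fetub (0.93) and KMT2E (0.93). For vox they were the ribosomal protein genes RPS2 (0.91), RPS16 (0.90) and RPL38 (0.90). For vent they were zgc:153115 (0.94), ENSDARG00000096877 (0.93) and PERP (0.91). For the other members they were USP37 (0.87), ZDHHC7 (0.85) and WDR45 (0.84) for bmp2b, fam133b (0.72), CANT1 (0.71) and si:ch211-152p11.8 (0.70) for bmp4, MAML1 (0.70) and ftr90 (0.69) for bmp7a, and SERPINH1 (0.71), LRP5 (0.69) and BMPER (0.69) for szl. These are descriptions over 39 libraries and 10728 genes.

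The rest of the pathway was followed with lists of other ligands, extracellular modulators, receptors, transducers and target genes, 46 genes matched singly, of which 33 to 35 were tested at each dose rate. Of the 35 tested at 5 mGy/h, 6 were higher and 0 lower, with a median log2 fold change of 0.13, beside the 9.1% of all genes called. With the libraries kept by the study 9 were higher and 1 lower, with a median of 0.20, beside 25.4% of all genes. The calls made only there were id1 (log2 fold change 0.39, adjusted p = 0.011), admp (0.36, adjusted p = 0.0214) and smad7 (0.46, adjusted p = 0.00493) higher and gdf6a (-1.18, adjusted p = 0.0301) lower. The level of gdf6a was low, with means over all libraries at 5 mGy/h of 0.57 CPM in exposed embryos and 0.88 CPM in controls. Of the 35 pathway genes tested at 0.5 mGy/h, 1 was higher and 1 lower, beside 7.51% of all genes called. At the lower dose rates edgeR called 0 of them, beside 0.0% of all genes at 0.005 and 0.00632% at 0.05 mGy/h. An unadjusted p under 0.05 was reached by 8 of 34 at 0.005 mGy/h, beside 10.5% of all genes. At 0.05 mGy/h it was reached by 0 of 33, beside 1.37% of all genes.

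Most of the called genes of this list at 5 mGy/h were targets. The list of targets was chosen with earlier results of these data known, so that its count is not independent support. Of 15 targets 4 were higher and 0 lower, beside 4.57% of all genes called higher and 4.53% called lower. All 4 encode transcription factors of the non-neural ectoderm or ventral side, but other such genes on the list were not called. The homeobox gene dlx3b rose 2.76-fold, from 1.997 ± 0.503 to 5.63 ± 1.49 CPM (SD, n = 6 each, log2 fold change 1.47 ± 0.21 SE, adjusted p = 0.00176). The homeobox gene msx1a rose 1.995-fold, from 2.29 ± 0.50 to 4.66 ± 0.763 CPM (adjusted p = 0.00507). Smaller rises were found for the forkhead gene foxi1 (1.39-fold, from 60.4 ± 7.39 to 85.6 ± 11.7 CPM, adjusted p = 0.0126) and for gata2a (1.28-fold, from 118 ± 10.4 to 155 ± 19.5 CPM, adjusted p = 0.025). Targets without a call had log2 fold changes of -0.07 for gata3, 0.13 for tfap2a and -0.25 for tfap2c. Those of eve1 and klf2b were 0.12 and 0.21, again without a call.

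The general BMP targets of the id family were not called at 5 mGy/h over all libraries, with log2 fold changes of 0.23 for id1, -0.06 for id2a, -0.49 for id2b, -0.11 for id3 and -0.14 for id4. The epidermal regulator tp63 had a log2 fold change of 0.59 (adjusted p = 0.0614). At 0.5 mGy/h id3 was higher (1.31-fold, 41.6 ± 6.74 to 54.5 ± 7.94 CPM, n = 6 each, adjusted p = 0.0497) and the ventral homeobox gene eve1 was lower (0.792-fold, 228 ± 33.7 to 181 ± 17.5 CPM, adjusted p = 0.0498), both at the edge of the threshold.

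Among the extracellular modulators, bmper, which encodes a Chordin-related protein that binds BMP, rose at 5 mGy/h from 62.7 ± 2.44 to 84.5 ± 6.80 CPM (1.32-fold, n = 6 each, adjusted p = 0.00889), the only called one of 5 tested. Of 6 transducers the receptor-regulated Smad gene smad9 was called (1.32-fold higher, adjusted p = 0.0286), while smad1 (log2 fold change 0.28) and smad5 (0.17), which are known for ventral patterning, were not. None of the 5 receptors and none of the 4 other ligands tested was called over all libraries. The latter included admp, a BMP-like ligand of the organizer, with a log2 fold change of 0.22 (adjusted p = 0.145). They also included bmp16, with 0.51 (adjusted p = 0.279), and gdf6a, with -0.58 (adjusted p = 0.248). At 0.5 mGy/h bmp16 (0.50, adjusted p = 0.472) and the BMPR2 gene ENSDARG00000020057 (-0.52, adjusted p = 0.479) had the largest estimates without a call. Both genes had under 1 CPM on average there. Of the genes that share a symbol with another, the BMPR1A gene ENSDARG00000019728, which encodes a type I receptor, was higher there (1.32-fold, 28.8 ± 1.68 to 38.1 ± 1.75 CPM, n = 6 each, adjusted p = 0.0094). In the libraries kept by the study SMAD4 ENSDARG00000075226 (0.43, adjusted p = 0.0119) and SMAD6 ENSDARG00000031763 (0.68, adjusted p = 0.0159) were called higher at 5 mGy/h and FSTL1 ENSDARG00000039576 lower (-0.60, adjusted p = 0.0119). The largest estimates at 0.05 mGy/h were those of id2b (0.42), which had under 1 CPM on average, and crim1 (-0.34), both with adjusted p = 0.9997. That of twsg1a at 0.005 mGy/h was -0.56 (adjusted p = 0.71).

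Genes of the organizer, which vox, vent and ved are known to repress, were described beside them. Of 6 such genes at 5 mGy/h 1, lhx1a, was lower (0.679-fold, from 51.7 ± 6.09 to 35.9 ± 3.67 CPM, n = 6 each, adjusted p = 0.0073) and 0 were higher. Over all genes 4.53% were called lower and 4.57% higher. The median log2 fold change of the list was -0.29, beside -0.05 over all genes. In the libraries kept by the study lhx1a was again the 1 called, beside 25.4% of all genes. The median was then -0.06, beside -0.07 over all genes. The homeobox gene noto had a log2 fold change of 0.09, and gsc and dkk1b had -0.37 and -0.34, none of them called. At 0.5 mGy/h 1 of the 6, the secreted Wnt antagonist gene frzb, was higher (1.35-fold, adjusted p = 0.0207), beside 7.51% of all genes called.

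**Figure D5:**
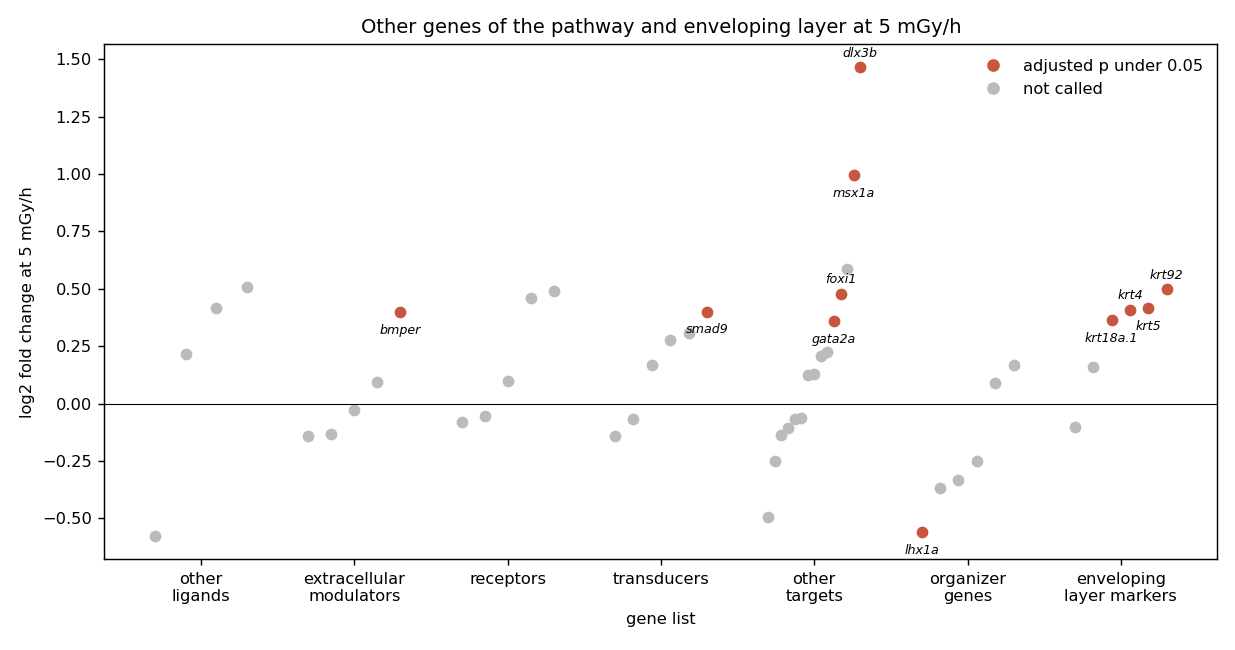
Log2 fold change at 5 mGy/h of each tested gene of the pathway lists, the organizer and the enveloping layer, one point a gene and ordered within its list, with red for an adjusted p under 0.05. The targets dlx3b and msx1a, at 1.47 and 0.9965, stand above the other points, and lhx1a at -0.56 is the only called gene below 0.

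Markers of the enveloping layer, the outer epithelium of the embryo, were also followed at 5 mGy/h. This list, too, was chosen with earlier results of these data known. Of 6 markers 4 were called higher, beside 4.57% of all genes called higher and 4.53% called lower. These 4 were the keratin genes krt4 (1.33-fold), krt5 (1.33-fold), krt92 (1.41-fold) and krt18a.1 (1.29-fold), while cldne and anxa1c had log2 fold changes of 0.16 and -0.10. The summed level of the 6 ranged from 3349 to 4697 CPM in controls and from 4319 to 6470 CPM in exposed embryos, and in the batch of 0.005 mGy/h, where chrd and ved were highest, from 10320 to 12520 CPM in controls. Of 4 markers of the yolk syncytial layer 1 was called higher (apoa1b, 1.58-fold), of 5 germ cell markers 1 lower (ddx4, 0.757-fold), of 8 gastrula markers 1 higher (foxi1, which is also among the targets) and of 7 maternal markers 0. Their summed ranges in controls and exposed embryos were 104 to 146 and 138 to 208 CPM for the yolk syncytial layer, 299.9 to 335.9 and 263 to 301 CPM for germ cells, 1634 to 2059 and 1547 to 1896 CPM for the gastrula markers, and 466 to 727 and 475 to 723 CPM for the maternal markers. The enveloping layer count was again 4 over the libraries kept by the study, where 2 yolk syncytial markers were higher, 2 germ cell markers lower, and 1 maternal marker higher and 1 lower. In that fit 25.4% of all genes were called. Some markers were also called at 0.5 mGy/h, where no member was. There 1 of 6 enveloping layer markers (anxa1c, 1.53-fold) and 1 of 4 yolk syncytial markers (apoa1b, 1.565-fold) were higher. Of 7 maternal markers 1 (npm2a, 0.679-fold) was lower, as was 1 of 8 gastrula markers. Of all genes 7.51% were called at this dose rate. The other enveloping layer markers had log2 fold changes from -0.32 for krt18a.1 to -0.03 for krt92, none of them called. The part of these tissues in the changes of chrd, szl and vent at 5 mGy/h was not tested. With counts thinned to the lowest depth of the batch, chrd (log2 fold change 0.55, adjusted p = 0.00689) and vent (-0.80, adjusted p = 0.0257) were still called, and szl was not.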

How the data were processed

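RNA came from pools of entire AB embryos. The authors mapped stranded paired reads with STAR to GRCz11 and deposited counts of read pairs per Ensembl gene, with no normalisation. The 4th column of each file was used, because the column of the opposite strand took at most 2.09%. No gene lengths or sequences were used here, so that levels are not compared between genes.

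In R 4.3.3, edgeR 4.0.16 was fitted to each batch (TMM, filterByExpr at its defaults of 10 for a gene's count and 15 for its total, two-sided quasi-likelihood test, Benjamini-Hochberg over all genes tested, threshold 0.05). Dose rates were compared in 1 fit over the 39 libraries with a mean per batch and exposure. Controls were compared in a separate fit of the 20 control libraries with a mean per batch. Printed CPM share 1 scaling over the 39 libraries, and log2 CPM have a prior of 0.5. Correlations used 100000 permutations within groups over 28 pairs, since 8 members were matched. The 81 pairs of replicates, which are pools of embryos, all differed beyond counting noise (chi-square over its degrees of freedom 4.12 to 137). Tested on simulated data, the fits recovered, of 200 genes changed 2-fold, 70.5% at 0.005, 64.5% at 0.05, 92.5% at 0.5 and 93.5% at 5 mGy/h. The changed genes were drawn from those above a minimum of counts, and each simulated gene varied independently of the others. These shares are therefore not the power to detect the changes of the members, most of which were smaller.

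Alternatives were DESeq2 1.42.0, RLE size factors, no filter or a CPM of at least 1, unstranded counts, thinning, the libraries kept by the study, 1 fit over all libraries, a replicate block and each library left out. The members and lists were chosen with earlier results of these data known. The text names every member, the pathway genes called at a dose rate (at most 12) or with its 2 largest estimates, and the 3 genes most like each member among those with a mean log2 CPM of at least 1, of which 1 is not reported here. Markers of the enveloping layer, yolk syncytial layer, germ cells, oocyte, gastrula and later stages were described. The highest dose rate and DNA methylation were not analysed here.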

Additional observations from a re-analysis of the deposited data

Results flagged for a closer look

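In 77 groups of 4 or 6 libraries (7 groups for each of 11 genes), 7 had a library far from the others, where chance gives about 1 in 20. In the batch of 0.005 mGy/h, control replicate 1 had the lowest vent (13.99 CPM, next 27.9 CPM) and the lowest level of the BAMBI gene ENSDARG00000055381 (1011 CPM, next 1216 CPM), and control replicate 2 had the highest bmp2b (19.5 CPM, next 16.8 CPM). At 5 mGy/h control replicate 2 had the lowest vent (50.9 CPM, next 96.6 CPM). Exposed replicate 1 at 0.05 mGy/h had the lowest ved (545.9 CPM, next 617.7 CPM), control replicate 2 at 0.5 mGy/h the highest ved (787 CPM, next 634 CPM), and exposed replicate 4 at 0.5 mGy/h the highest level of the BAMBI gene ENSDARG00000099677 (1.03 CPM, next 0.761 CPM).

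The effect of exposure differed between batches by test for 3 genes. For vent the adjusted p of a difference among the 4 dose rates was 0.0457, and for the BAMBI gene ENSDARG00000055381 it was 0.0419. The log2 fold change at 5 mGy/h exceeded that at 0.5 mGy/h by 0.69 for bmp2b and by 0.71 for that BAMBI gene.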

How the results depend on the processing

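No called value of a member or candidate changed sign under any alternative. Of 96 refits of the 7 called values, 74 kept the call and 22 lost it, 19 of them with a library left out. Of 803 refits of 59 values without a call, 20 gained one, and 37 changed sign without a call. The libraries kept by the study are all libraries at 0.005 mGy/h, so that no such refit exists there, and the tests over several batches were not repeated with libraries left out.

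Both the number of genes called and the calls of the members depended on the method and on the libraries used. At 0.005 mGy/h 0 genes were called by edgeR, 136 by DESeq2, 52 with no filter on low counts, 35 in 1 fit over all libraries, and 0 to 155 with a library left out (155 without control replicate 1). Of the members 1 was called (vent) in each of the first 3 of these alternatives, and 0 to 1 with a library left out. At 0.05 mGy/h the count was 1 by edgeR, 3 over the kept libraries, 2 by DESeq2 and 0 to 1 with a library left out. At 0.5 mGy/h it was 1120, against 1752 over the kept libraries, 1822 by DESeq2, 385 in 1 fit and 225 to 1806 with a library left out (1806 without exposed replicate 3, 225, 344 and 637 without exposed replicates 4, 5 and 6, 576 and 611 without control replicates 2 and 3). At 5 mGy/h it was 1366, against 3690 over the kept libraries, 2196 by DESeq2 and 297 to 2428 with a library left out (602, 2209, 297, 306 and 805 without exposed replicates 1 to 5, and 643, 2428, 297, 336 and 501 without control replicates 1, 2, 3, 5 and 6). Members called at 5 mGy/h numbered 5 over the kept libraries and 1 to 3 with a library left out, chrd alone being called without exposed replicate 3 or 4 or control replicate 3, 5 or 6. Over the kept libraries 3 members differed among the 4 dose rates (ved at the edge of the threshold), and 5 differed between 5 and 0.5 mGy/h. There 6 members were called for the mean effect, and 6 pairs of members were correlated. The cause of these differences was not tested.

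Whether replicate numbers pair the samples stayed unsettled. Same-numbered libraries had correlations from -0.216 to 0.205 over 19 pairs. The control of the same number was the most alike for exposed replicates 1, 2, 3 and 4 at 0.5 mGy/h. It was so for replicates 2 and 3 at 0.005 and at 0.05 mGy/h, and for no exposed library at 5 mGy/h. With a replicate block the counts of called genes were 459, 1, 1995 and 626 from the lowest dose rate to the highest, with 2 (vent and vox), 0, 0 and 3 members. At 0.005 mGy/h this fit held 6 libraries, because control replicate 1 has no exposed library of its number. Leaving out that control without a block already gave 155 called genes, vent among them (edgeR adjusted p = 0.000387). The effect of the block at this dose rate is thus mixed with that of the missing library. Under the block the BAMBI gene ENSDARG00000055381 was called at 0.5 mGy/h (log2 fold change -0.28, edgeR adjusted p = 0.0297) and was not called at 5 mGy/h (0.39, adjusted p = 0.0515). Low counts limit what can be said of the BAMBI gene ENSDARG00000099677, which had at most 1.91 CPM.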

Other observations

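The organizer gene gsc had few counts and fell into separate levels within single groups. In the batch of 0.005 mGy/h it had 2.32, 2.15 and 2.14 CPM in control replicates 2, 3 and 4 but 0 counts in control replicate 1, the control in which vent was low, and at most 0.0995 CPM in the 3 exposed libraries (edgeR adjusted p = 0.248). In the batch of 0.05 mGy/h 3 of 4 controls and 3 of 4 exposed libraries had under 1 CPM, the others being at 1.97 and 2.19 CPM. In the batches of 0.5 and 5 mGy/h all 24 libraries had at least 1.40 CPM.

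The levels of vent and vox were set side by side in each library as the difference of their log2 CPM, a measure chosen after the values were seen. Exposed embryos were lower by 1.78 at 0.005 mGy/h and by 0.99 at 5 mGy/h, and differed by -0.06 at 0.05 and 0.19 at 0.5 mGy/h. At 0.005 mGy/h the values did not overlap (-6.10 to -5.49 in exposed libraries, -4.92 to -3.55 in controls). At 5 mGy/h they did (-3.26 to -1.42 in exposed libraries, -2.29 to -0.84 in controls). The difference of ved and vox moved by no more than 0.14 at any dose rate.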
